A study of Juglans regia with 15 samples.

Results

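The walnut endopleura is the thin seed coat around the kernel. Its expression at 119 days after pollination (DAP) was compared with that at 63 DAP, and the 91 DAP libraries were used to see which changes of the first interval were still present at the end of the second. All libraries came from fruits of the Juglans regia cultivar "Linzaoxiang" with no treatment, and the groups were 3 libraries of 119 DAP, 3 of 91 DAP and 3 of 63 DAP, out of 15 libraries at 5 stages. Each library was a pool of the endopleuras of 7 nuts, and no source says whether the pools came from different trees, so the p-values measure the spread between pools only. Expression was deposited as FPKM, the fragments of a gene scaled to its length and to the mapped fragments of the library. Of the 39414 genes listed, 22310 had at least 1 FPKM in at least 3 of the 15 libraries and were tested on the log2(FPKM + 1) scale, on which changes of genes with low FPKM appear smaller than they are.

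The seed coat of walnut is a maternal tissue that encloses the growing embryo. It is known for its high content of condensed tannins, which are built from flavan-3-ols. Chalcone synthase makes the first committed step of the flavonoid pathway, and anthocyanidin reductase (ANR) turns anthocyanidins into the flavan-3-ols of condensed tannins. While the nut grows, seed coat cells divide, expand and lay down wall and surface lipid, and later they fill with phenolics.

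The absolute number of reads is unknown. Relative depth, read from the smallest FPKM steps, differed at most 1.33-fold among the 9 libraries. The 10 most abundant genes took 22.6% ± 2.88 (SD, n = 3) of the FPKM sum at 119 DAP and 17.6% ± 1.31 (SD, n = 3) at 63 DAP, so the scaling of the libraries bears on the values of all remaining genes. Transcripts of seed storage and oil genes, known from embryos, were present in these endopleura pools. Of 6 such markers, 5 had at least 1 FPKM in every one of the 9 libraries, and the sixth, the cupin gene JreChr14G11701, was at most 0.138 FPKM. Their summed level was 6467, 20153 and 3604 FPKM in the 119 DAP replicates 1 to 3, against 2112, 1895 and 6759 FPKM in the 63 DAP replicates. The sums of the groups overlapped, and 119 DAP replicate 2 stood apart from the other libraries. In each library most of the sum came from the glutelin genes JreChr03G12610 and JreChr03G12612, which had 1402 and 5004 FPKM in 63 DAP replicate 3. Of the other tested markers, JreChr12G10222 and JreChr01G10579 did not overlap between 119 and 63 DAP, while JreChr13G11197 did. The 2 seed coat markers, chalcone synthase and ANR, had a summed level between 403 and 895 FPKM at 119 DAP, against between 363 and 384 FPKM at 63 DAP, and replicate 2 was the lowest library of 119 DAP. Of 3 markers of green tissue, the 2 chlorophyll-binding protein genes were detected at both stages, and the gene of the small subunit of Rubisco (JreChr15G10361) stayed below 1 FPKM in all 9 libraries.

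**Figure D1:**
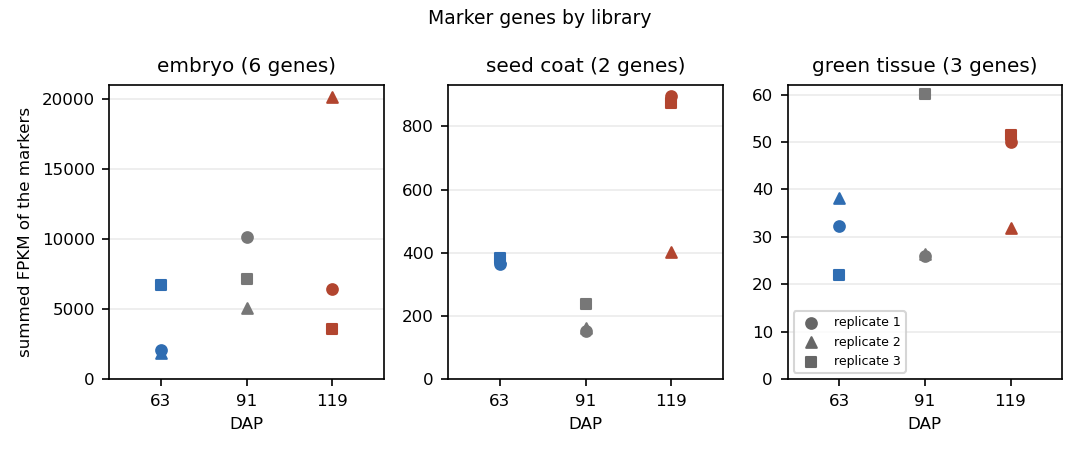
Summed FPKM of the embryo, seed coat and green tissue markers (y axis, linear, a scale for each panel) at 63, 91 and 119 DAP, with 1 point per library and a symbol for each replicate number. The embryo markers reached 20153 FPKM in replicate 2 of 119 DAP, while this library had the lowest seed coat sum of its stage, 403 FPKM.

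At 119 DAP, 2395 genes were higher and 4821 lower than at 63 DAP (limma, adjusted p under 0.05), which is 10.7% and 21.6% of the tested genes and 32.3% in both directions together. In 2234 of the higher genes every 119 DAP library lay above every 63 DAP library, and in 4646 of the lower genes every 119 DAP library lay below every 63 DAP library. Over all tested genes, 13.6% lay wholly above and 28.1% wholly below. Large changes were few: 156 of the 2395 genes rose by 3 or more on the log2 scale, and 177 of the 4821 fell by as much. In bulk tissue, fewer cells of a type and less RNA per cell cannot be told apart. The split depends on scaling: 33.2% of the changed genes were higher at 119 DAP. Quantile normalization gave 47.4% and scaling by median ratios 45.5%. Over the tested genes the log2 change had a median of -0.11, and it was 0.0046 and -0.0078 in those settings and -0.17 after rescaling to equal sums.

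Some genes were switched nearly on or off. With the limits set after the values had been seen, 22 genes had at least 5 FPKM in each 119 DAP library and under 0.5 FPKM in each 63 DAP library, and 46 genes showed the opposite. Of the 46, 31 were already under 0.5 FPKM in every 91 DAP library. Of the 22, 2 were still under 0.5 FPKM in every 91 DAP library and 1 had at least 5 FPKM in each of them, so most met neither limit at 91 DAP. Few of these genes are annotated: 1 of the 22, the methyltransferase gene JreChr07G12722, and 5 of the 46. These 5 are JreChr03G11093, JreChr03G12410 and JreChr04G12058, described below, and JreChr05G10301 and JreChr06G11582.

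Among annotated genes, the largest rise on the log2(FPKM + 1) scale was that of JreChr05G11366 (chromosome 5, 28812940 to 28818655), a member of the Bet v I family of small ligand-binding, pathogenesis-related proteins. It had 501, 281 and 579 FPKM at 119 DAP, against 3.18, 3.53 and 11.7 FPKM at 63 DAP. The means were 454 ± 154 and 6.15 ± 4.85 FPKM (SD, n = 3 each), a 73.8-fold difference, with 6.13 on the log2 scale (standard error 0.47, limma adjusted p = 4.12e-07). Its rise was called from 63 to 91 DAP (log2 change 5.20, adjusted p = 3.32e-06), where the libraries had 185, 222 and 291 FPKM, and not from 91 to 119 DAP (0.92, adjusted p = 0.2). Of 12 Bet v I genes 3 were tested, 1 rose and none fell (median 0.06), which is 33.3% changed beside 32.3% of all tested genes.

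A pair of genes annotated like carrot DC-8, an embryonic protein of the late embryogenesis abundant (LEA) class, also rose. JreChr01G10577 had 177, 356 and 149 FPKM at 119 DAP, against 5.96, 4.78 and 16.6 FPKM at 63 DAP (log2 change 4.57, standard error 0.46, adjusted p = 4.8e-06 from limma). JreChr01G12905 had 30.8, 53.4 and 24.4 FPKM at 119 DAP, against 2.20, 1.89 and 4.46 FPKM at 63 DAP (log2 change 3.25, adjusted p = 7.21e-06). The 2 genes differed in timing. JreChr01G10577 was already higher at 91 DAP (log2 change 3.71 from 63 DAP, adjusted p = 4.86e-05), while for JreChr01G12905 the log2 change was 0.68 in this interval (adjusted p = 0.166) and 2.57 in the next (adjusted p = 0.000212). The difference between the 2 genes was not tested. Both were highest in 119 DAP replicate 2, the library with the highest embryo marker sum, and the part of that in their rise was not tested. The lowest 119 DAP library of each gene, at 149 and 24.4 FPKM, lay above its highest 63 DAP library. The rule for naming these genes required this.

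The embryo storage list held genes that rose and genes that did not pass the test. Of its 6 members 5 were tested, 3 rose and none fell, with a median log2 change of 1.77 beside -0.11 for all tested genes. The LEA gene JreChr01G10579 had 158, 266 and 109 FPKM at 119 DAP, against 36.9, 26.6 and 47.0 FPKM at 63 DAP (log2 change 2.18, adjusted p = 0.000675). The oleosin JreChr12G10222, which coats oil bodies, had 433, 927 and 384 FPKM at 119 DAP, against 173, 155 and 144 FPKM at 63 DAP, with no overlap (log2 change 1.77, adjusted p = 0.00184). The glutelin JreChr03G12610, a seed storage protein, rose by 1.87 on the log2 scale (adjusted p = 0.0275), but without 119 DAP replicate 2 it was 1.20 (adjusted p = 0.124). Its call also ended without 63 DAP replicate 1 (1.66, adjusted p = 0.095) or 2 (1.68, adjusted p = 0.0916), with quantile normalization (adjusted p = 0.0525) and when the fit held no other stages (adjusted p = 0.0872). The second glutelin, JreChr03G12612, and JrFAD2 (JreChr13G11197), a desaturase that makes linoleic acid, did not pass (adjusted p = 0.297 and 0.296). Without 119 DAP replicate 2, 2 of the 5 tested members passed.

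The other 5 of the 8 largest annotated rises were those of a zinc finger gene, a pair of kinase genes, an oxygenase gene and a methyltransferase gene. The C2H2 zinc finger gene JreChr06G11609 (chromosome 6, 28675689 to 28676474), whose closest Arabidopsis gene in the supplied annotation is AT1G27730, had 146, 122 and 80.7 FPKM at 119 DAP, against 5.76, 8.91 and 9.15 FPKM at 63 DAP (log2 change 3.69, standard error 0.27, adjusted p = 2.56e-07). It rose in both intervals, with log2 changes of 1.47 up to 91 DAP and 2.23 after it (adjusted p = 0.00113 and 0.000102). The receptor-like kinase genes JreChr14G11480 and JreChr14G11464, both annotated as MRH1, averaged 18.6 ± 7.47 and 15.4 ± 6.62 FPKM at 119 DAP, against 0.716 ± 0.0568 and 0.611 ± 0.169 FPKM at 63 DAP (SD, n = 3). Their log2 changes were 3.44 and 3.27 (limma adjusted p = 2.4e-05 and 1.01e-05), and each was highest in 119 DAP replicate 2 (26.7 and 22.7 FPKM). As genes with the same annotation they could share reads, but their sequences were not compared. JreChr03G12026, a myo-inositol oxygenase, which makes glucuronic acid for cell wall sugars, had 100.4, 28.9 and 39.7 FPKM at 119 DAP, against 4.85, 3.88 and 4.57 FPKM at 63 DAP (log2 change 3.20, adjusted p = 0.000142). Its rise came after 91 DAP (log2 change 3.17 from 91 to 119 DAP, adjusted p = 0.000469), where the libraries still had 2.49, 2.70 and 12.1 FPKM. JreChr07G12722, a SAM-dependent carboxyl methyltransferase, of a family that makes methyl esters of small acids, had 27.0, 7.50 and 33.2 FPKM at 119 DAP and was listed at 0 in the 3 libraries of 91 DAP and the 3 of 63 DAP (adjusted p = 8.49e-07 against 63 DAP). Its place among the rises depends on the pseudocount: on the log2(FPKM + 0.1) scale its difference was 7.57, above the 6.38 of JreChr05G11366.

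Of the 8 largest annotated falls, that of JreChr03G11093 came first on the log2(FPKM + 1) scale. This gene (chromosome 3, 21761203 to 21767663), with the plastocyanin-like domain of copper-binding cell surface proteins, had 0.0357, 0.160 and 0.201 FPKM at 119 DAP, against 96.2, 67.5 and 19.8 FPKM at 63 DAP (log2 change -5.52, standard error 0.47, adjusted p = 1.04e-06 from limma). It was down to 3.30, 1.65 and 0.306 FPKM by 91 DAP. The serine carboxypeptidase JreChr13G10435 had 6.47, 5.40 and 7.77 FPKM at 119 DAP, against 282, 269 and 81.2 FPKM at 63 DAP (log2 change -4.62, adjusted p = 6.39e-07), and was lowest at 91 DAP, at 2.50, 3.19 and 2.69 FPKM. From 91 to 119 DAP it changed by 0.98 (adjusted p = 0.0841). The pectinesterase JreChr03G12057, which removes methyl groups from wall pectin, had 2.18, 3.03 and 2.20 FPKM at 119 DAP, against 44.7, 43.5 and 36.5 FPKM at 63 DAP (log2 change -3.62, standard error 0.24, adjusted p = 1.25e-07). It fell in both intervals (-1.54 and -2.08, adjusted p = 0.000373 and 7.98e-05).

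The other 5 of these 8 genes include a pair of GDSL lipases. The GDSL lipase JreChr10G10168 had 1.87, 1.73 and 2.65 FPKM at 119 DAP, against 64.7, 115 and 55.5 FPKM at 63 DAP (log2 change -4.63, adjusted p = 6.6e-07). The GDSL lipase JreChr04G12058 was listed at 0 in replicates 1 and 3 and at 0.0428 FPKM in replicate 2 of 119 DAP, against 17.5, 14.6 and 5.23 FPKM at 63 DAP (adjusted p = 6.44e-07). The lipid transfer protein gene JreChr13G11259 averaged 1.54 ± 0.876 FPKM at 119 DAP and 25.8 ± 3.49 FPKM at 63 DAP (log2 change -3.44, adjusted p = 1.74e-07), and the hydrophobic seed protein gene JreChr03G12410 averaged 0.159 ± 0.147 and 11.2 ± 4.88 FPKM (log2 change -3.32, adjusted p = 5.24e-06; SD, n = 3 each). The unnamed gene JreChr08G11643 averaged 1.60 ± 0.724 FPKM at 119 DAP and 28.0 ± 13.0 FPKM at 63 DAP (log2 change -3.43, adjusted p = 3.39e-06).

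Over all genes, annotated or not, the extremes carried no annotation in the sources used. JreChr08G11374 (chromosome 8, 28991433 to 28991924) had 3193, 3899 and 2137 FPKM at 119 DAP, against 0.786, 1.36 and 2.90 FPKM at 63 DAP (log2 change 10.20, adjusted p = 5.61e-09), with 351, 287 and 112 FPKM at 91 DAP. JreChr03G12965 (chromosome 3, 5355488 to 5355778) had 513, 1372 and 934 FPKM at 119 DAP, against 0.649, 0 and 0.150 FPKM at 63 DAP (adjusted p = 9.03e-09). In the other direction, JreChr11G11555 (chromosome 11, 32303361 to 32303834) had 0.210, 0.266 and 0.286 FPKM at 119 DAP, against 556, 399 and 316 FPKM at 63 DAP (log2 change -8.37, adjusted p = 2.16e-10). JreChr05G10003 (chromosome 5, 10041111 to 10042317) was listed at 0 in all libraries of 119 and 91 DAP, against 557, 368 and 121 FPKM at 63 DAP (adjusted p = 6.42e-09). All 4 had no overlap between the libraries of the 2 stages, which the rule for naming them required.

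**Figure D2:**
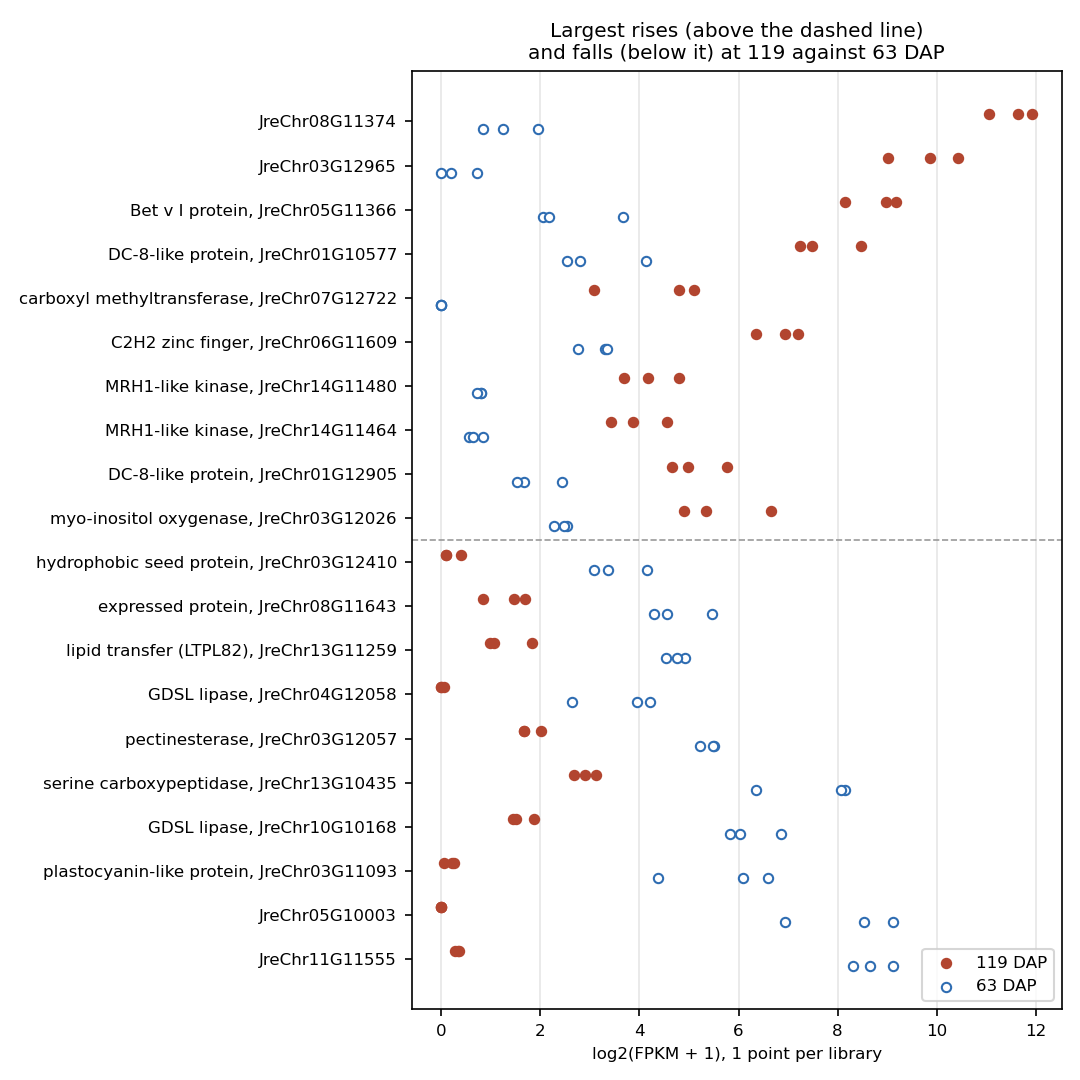
log2(FPKM + 1) of each 119 DAP library (filled points) and each 63 DAP library (open points) for the 10 named genes that rose most and the 10 that fell most. The libraries of the 2 stages do not overlap in any of these genes, which the rule for naming them required.

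The gene lists below were drawn from annotation words and hold only genes annotated in the study's supplementary tables, so they are samples of families and not whole families. Of the 1748 annotated tested genes, 173 rose and 375 fell (31.4% changed), close to the 32.3% of all tested genes. Each list with tested members is given by its counts and its median, beside the median of -0.11 of all tested genes. Over all tested genes 10.7% rose and 21.6% fell, and list counts near these shares are not read as results about the list. The medians of the hormone, heat shock and sugar lists lay near 0 and changed sign under at least 1 of the other scalings.

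The flavonoid list had 12 members, of which 7 were tested, 4 rose and none fell (median log2 change 0.80). With no filter 11 were tested, 3 rose and 1 fell, and the median was 0.20. JreChr11G10846 and JreChr11G10794 are annotated as dihydroflavonol-4-reductase, the enzyme that makes leucoanthocyanidins, and could share reads. JreChr11G10846 had 60.6, 40.9 and 64.8 FPKM at 119 DAP, against 16.6, 22.0 and 19.4 FPKM at 63 DAP (log2 change 1.46, standard error 0.19, adjusted p = 5.57e-05). JreChr11G10794 had 10.1, 5.95 and 11.9 FPKM at 119 DAP, against 2.39, 4.11 and 1.41 FPKM at 63 DAP (log2 change 1.53, adjusted p = 0.00199). Both rose from 91 to 119 DAP (adjusted p = 0.000115 and 0.000444) and were lowest in 119 DAP replicate 2, as were chalcone synthase and JrANR. Chalcone synthase (JreChr02G10304) had 553, 223 and 529 FPKM at 119 DAP, against 169, 196 and 195 FPKM at 63 DAP (log2 change 1.11, adjusted p = 0.0375). Its call ended when replicate 1, 2 or 3 of 63 DAP or replicate 1 or 3 of 119 DAP was left out, with adjusted p up to 0.139, and also after rescaling to equal sums (0.0585), with no filter (0.0559) and when the fit held no other stages (0.0587). JrANR (JreChr09G12363) was 0.54 higher on the log2 scale (adjusted p = 0.0734), which did not pass, and it was past the threshold without 119 DAP replicate 2 (0.85, adjusted p = 0.00171) and with median-ratio scaling (0.66, adjusted p = 0.0147). The leucoanthocyanidin dioxygenase homolog JreChr03G12442 averaged 3.97 ± 1.39 FPKM at 119 DAP and 6.92 ± 3.84 FPKM at 63 DAP (SD, n = 3 each), and the groups overlapped (adjusted p = 0.262).

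The surface lipid list, which holds GDSL lipases, lipid transfer proteins and acyltransferases of cutin and wax formation, had 27 members. Of the 19 tested, 4 rose and 10 fell, of which 8 fell by 1 or more on the log2 scale, and the median was -0.73. With no filter 26 were tested, 5 rose and 10 fell, and the median was -0.19. Of the 8 members with a mean of at least 5 FPKM, 2 rose and 6 fell. The glycerol-3-phosphate acyltransferase homolog JreChr09G11569, of a family that makes cutin precursors, fell by 2.14 (adjusted p = 5.48e-05). The wax synthase JreChr06G10736 had 7.75, 5.07 and 5.13 FPKM at 119 DAP, against 0.582, 0.468 and 0.504 FPKM at 63 DAP (log2 change 2.18, adjusted p = 9.22e-07). The lipid transfer protein gene JreChr13G10538, already abundant, had 1037, 849.5 and 1252 FPKM at 119 DAP, against 469.8, 463 and 316 FPKM at 63 DAP (log2 change 1.33, adjusted p = 7.39e-05).

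Of 19 cell division and replication genes 17 were tested, 11 fell and 1 rose (median -0.48). With quantile normalization 6 fell, and of the 6 members with a mean of at least 5 FPKM 1 fell. On the log2(FPKM + 0.1) scale the median was -1.82. The D-type cyclin homolog JreChr16G10753, of the proteins that drive entry into the cell cycle, had 14.6, 14.3 and 23.2 FPKM at 119 DAP, against 85.4, 74.2 and 85.3 FPKM at 63 DAP (log2 change -2.20, standard error 0.35, adjusted p = 0.000293). The other 10 members that fell were at most 1.66 FPKM in every 63 DAP library. The cyclin JreChr06G11540 had 0, 0 and 0.0995 FPKM at 119 DAP, against 1.31, 1.27 and 0.831 FPKM at 63 DAP (adjusted p = 4.02e-05). The member that rose, the DNA polymerase epsilon subunit JreChr13G10807, had a log2 change of 0.59 (adjusted p = 0.0413), which did not pass when replicate 1, 2 or 3 of 63 DAP or replicate 1 or 2 of 119 DAP was left out (adjusted p up to 0.142), nor after rescaling to equal sums (0.0674).

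Cytosolic ribosomal protein genes moved by small amounts. Of 20 members 17 were tested, 10 fell and 1 rose, with a median of -0.46, and none changed by 1 or more on the log2 scale. The count of falls was 3 with median-ratio scaling, 12 after rescaling to equal sums, and 5 or 6 without replicate 1 or 2 of 119 DAP or replicate 1 or 2 of 63 DAP. The L22 homolog JreChr15G12145 averaged 5.18 ± 0.318 FPKM at 119 DAP and 11.1 ± 1.10 FPKM at 63 DAP (SD, n = 3 each, log2 change -0.97, limma adjusted p = 0.00124). The list member JreChr15G12148 averaged 5.39 ± 0.619 and 8.94 ± 0.943 FPKM (SD, n = 3 each, log2 change -0.64, limma adjusted p = 0.0116). The call of JreChr15G12148 ended with quantile normalization (-0.49, adjusted p = 0.0511). The L7Ae homolog JreChr10G10166 rose (log2 change 0.63, adjusted p = 0.0124), and it was not past the threshold without 63 DAP replicate 1 (adjusted p = 0.0528) or 119 DAP replicate 3 (adjusted p = 0.0504).

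Wall genes changed in both directions, while the starch genes named below fell. In the pectin and cell wall list 10 of 18 members were tested, 4 fell and 1 rose (median -0.56), and with no filter 7 of 15 fell. Beside the pectinesterase JreChr03G12057, the beta-1,3-glucanase JreChr01G10831 fell by 1.53 on the log2 scale (adjusted p = 8.36e-05), while JreChr13G10746, of the same glycosyl hydrolase family 17, had 76.9, 50.8 and 63.9 FPKM at 119 DAP, against 16.6, 13.9 and 19.1 FPKM at 63 DAP (log2 change 1.88, adjusted p = 1.41e-06). In the sugar list 10 of 18 members were tested, 3 fell and 1 rose (median 0.05), which is 40.0% changed beside 32.3% of all tested genes. The starch synthase JreChr12G10791 had 48.7, 34.0 and 61.2 FPKM at 119 DAP, against 139, 138 and 145 FPKM at 63 DAP (log2 change -1.57, adjusted p = 0.000137), and the sucrose synthase JreChr03G11652, which cleaves sucrose, averaged 25.9 ± 3.71 and 60.1 ± 8.62 FPKM (log2 change -1.18, adjusted p = 0.000916; SD, n = 3 each). The subunit of ADP-glucose pyrophosphorylase JreChr04G11920, the enzyme that feeds starch synthesis, fell by 0.46 (adjusted p = 0.00974). That call ended without 63 DAP replicate 2 (adjusted p = 0.0518), with median-ratio scaling (0.0636) and when the fit held no other stages (0.0501). The sucrose-phosphate synthase JreChr03G12421, which makes sucrose, rose by 0.74 (adjusted p = 0.0213), which did not hold after rescaling to equal sums (0.0538) or without 63 DAP replicate 1 (0.061) or 2 (0.064) or 119 DAP replicate 1 (0.0685).

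Of 90 transcription factor genes of the MYB, bHLH, NAC, WRKY and MADS families 49 were tested, 8 rose and 9 fell (median -0.09), which is 34.7% changed beside 32.3% of all tested genes. Quantile normalization gave 11 rises and 6 falls (median 0.10), rescaling to equal sums 5 and 10, and the fit without 119 DAP replicate 1 gave 4 and 9. The median was also above 0, at 0.03, after scaling by median ratios, and 5 rose without 63 DAP replicate 2. The MYB gene JreChr09G10873 had 12.6, 11.1 and 8.89 FPKM at 119 DAP, against 61.0, 70.2 and 57.7 FPKM at 63 DAP (log2 change -2.44, standard error 0.15, adjusted p = 4.32e-08), and the NAC gene JreChr03G12037 averaged 1.46 ± 0.835 and 9.35 ± 4.45 FPKM (log2 change -2.03, adjusted p = 0.000728). The MYB gene JreChr15G10243 had 5.28, 4.02 and 10.6 FPKM at 119 DAP, against 0.294, 0.394 and 0.376 FPKM at 63 DAP (log2 change 2.40, adjusted p = 8.36e-05), and the bHLH gene JreChr13G11345 averaged 5.21 ± 2.72 and 1.06 ± 0.190 FPKM (log2 change 1.50, adjusted p = 0.00238; SD, n = 3 each). Of 26 hormone genes 15 were tested, 2 rose and 4 fell (median -0.05), which is 40.0% changed beside 32.3% of all tested genes. The ethylene receptor JreChr02G10909 had 65.7, 42.3 and 73.3 FPKM at 119 DAP, against 137, 143 and 196 FPKM at 63 DAP (log2 change -1.40, adjusted p = 0.000114). The gibberellin-regulated gene JreChr16G10714 fell by 2.44 (adjusted p = 0.000156), and the auxin response factor JreChr13G10207 and the gibberellin 20-oxidase homolog JreChr13G10532, of gibberellin synthesis, rose by 1.10 and 0.76 (adjusted p = 0.000575 and 0.000275).

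Several defence and detoxification families held few tested members. Of 32 genes of the chitinase list, whose enzymes cut chitin, 4 passed the filter on low values and 3 of these rose (median 1.98). With no filter 16 were tested, 3 rose and 1 fell, and the median was 0.022. They lie near each other on chromosome 1 and could share reads. JreChr01G13930 had 14.2, 18.8 and 7.04 FPKM at 119 DAP, against 1.24, 1.31 and 1.66 FPKM at 63 DAP (log2 change 2.49, adjusted p = 0.0016), and JreChr01G13934 averaged 11.9 ± 8.94 and 1.59 ± 1.34 FPKM (log2 change 2.22, adjusted p = 0.00184; SD, n = 3 each). Of 6 glutathione S-transferase genes, whose products conjugate glutathione, 4 were tested and 3 fell (median -0.92), with JreChr08G10186 at 10.4 ± 1.00 FPKM at 119 DAP and 27.6 ± 9.43 FPKM at 63 DAP (SD, n = 3 each, log2 change -1.28, adjusted p = 0.0023) and JreChr04G11975 at -1.89 (adjusted p = 1.98e-05). Of 14 protease genes 4 were tested and 3 fell (median -0.67), the subtilisin JreChr10G10475 by 2.08 (adjusted p = 9.48e-06) and the papain-like JreChr16G10763 by 0.77 (adjusted p = 0.0034). Of 17 NB-ARC disease resistance genes 7 were tested and 1 rose (median 0.05), which is 14.3% beside the 10.7% of all tested genes that rose. This gene, JreChr01G11221, had a log2 change of 0.64 (adjusted p = 0.0302) that did not pass when replicate 1, 2 or 3 of 63 DAP or replicate 1 or 2 of 119 DAP was left out, and it was 0.42 (adjusted p = 0.134) without 119 DAP replicate 2.

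Smaller changes were seen in the remaining lists. Of 20 transporter genes 12 were tested, 5 rose and 1 fell (median 0.29). The rises were 2 without 119 DAP replicate 1 and when the fit held no other stages, and 3 after rescaling to equal sums or without 119 DAP replicate 3 or any 1 of the 63 DAP libraries. None of the 4 members with a mean of at least 5 FPKM rose, and with no filter the median was -0.044. The MATE transporter JreChr01G13593 fell most, with 27.9, 26.6 and 23.9 FPKM at 119 DAP, against 96.6, 102 and 90.9 FPKM at 63 DAP (log2 change -1.85, adjusted p = 1.73e-06), and the ABC protein gene JreChr14G10229 rose by 0.86 (adjusted p = 0.00115). Of 24 genes for lignin and phenolic polymerization 4 were tested, 1 rose and 1 fell (median -0.20), which is 50.0% changed beside 32.3% of all tested genes. The laccase JreChr01G13033, which oxidizes phenols, was listed at 0 in the 119 DAP libraries, against 0.870, 0.438 and 1.16 FPKM at 63 DAP (adjusted p = 0.000499). The O-methyltransferase JreChr10G12207 rose by 0.82 (adjusted p = 0.0311), and its adjusted p reached 0.0842 with 1 library left out. Of 17 heat shock genes 12 were tested, 1 rose and 1 fell (median 0.04), and the small heat shock gene that rose, JreChr04G11946 (0.51, adjusted p = 0.0423), did not pass in 9 alternatives, among them each 63 DAP library, 119 DAP replicate 2 or 3 or 91 DAP replicate 2 left out (adjusted p up to 0.164). Of the photosynthesis list 2 of 3 members were tested and none changed in limma (median 0.11, adjusted p of 0.184 and 0.212), and none of 10 germin-like cupin genes passed the filter.

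**Figure D3:**
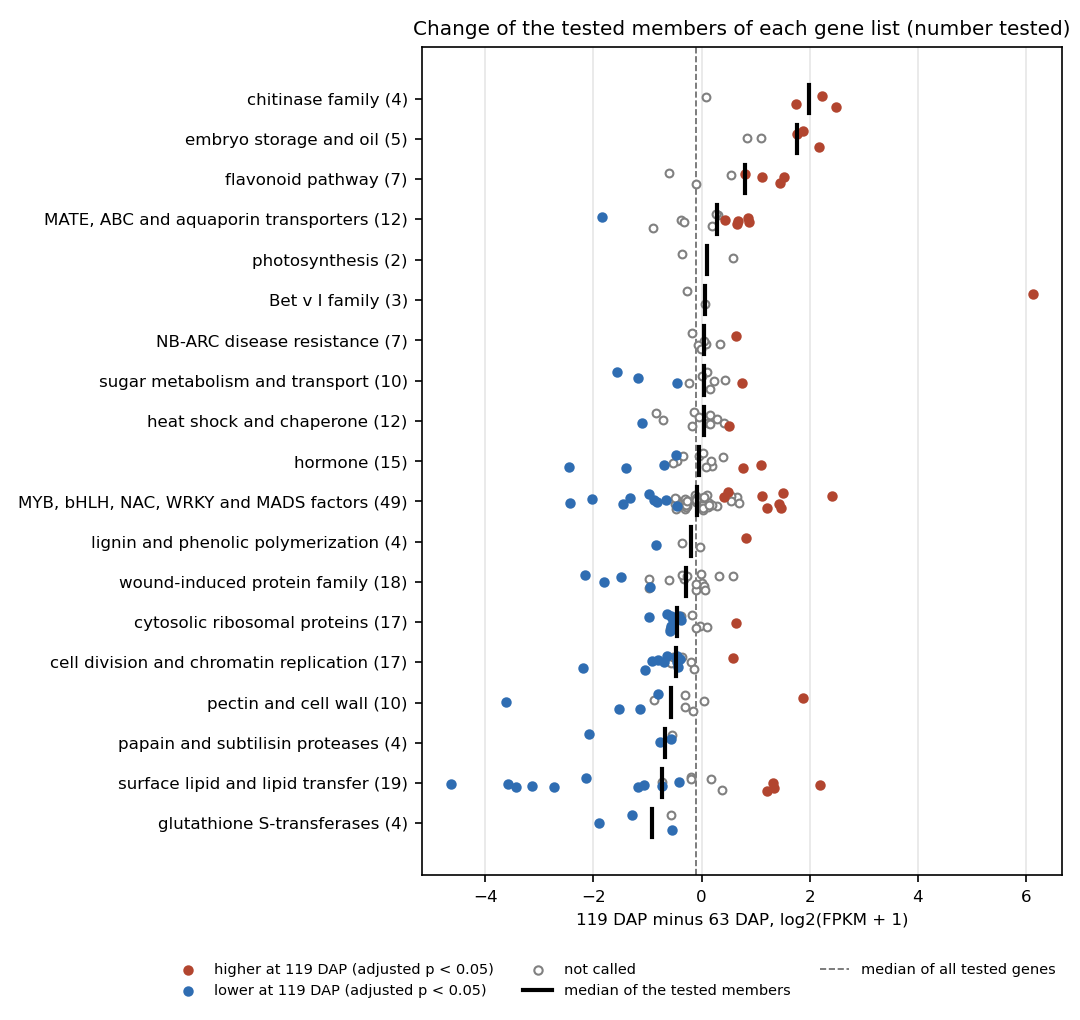
Difference between 119 and 63 DAP on the log2(FPKM + 1) scale for each tested member of each list (points), with filled points for an adjusted p under 0.05, a bar for the median of the list and a dashed line for the median of all tested genes, -0.11. The medians run from -0.92 (glutathione S-transferases) to 1.98 (chitinase family), and several lists have members on both sides of 0.

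Among genes that the study names by identifier, the leucine-rich repeat gene JreChr06G11560, annotated like BAK1, the co-receptor of brassinosteroid signalling, had 3.72, 2.25 and 2.92 FPKM at 119 DAP, against 12.3, 6.59 and 5.67 FPKM at 63 DAP (log2 change -1.16, adjusted p = 0.00302). The GRAM domain gene JreChr01G13585 averaged 29.5 ± 2.62 FPKM at 119 DAP and 23.6 ± 2.06 FPKM at 63 DAP (SD, n = 3 each), with no overlap between libraries and an adjusted p of 0.062 that ran from 0.0227 to 0.186 over the alternatives. The chloride channel gene JreChr03G12424 averaged 22.1 ± 2.43 and 24.4 ± 1.64 FPKM (adjusted p = 0.596). JreChr03G12627 was listed at 0 in all 9 libraries, and JreChr13G10772 was at most 0.252 FPKM, so neither was tested. The MYB16 homolog JreChr05G10191 was not among the tested genes either.

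The 2 steps divide the net change by time. Of the 4821 genes that fell, 2499 were called lower from 63 to 91 DAP with no call in the next step, 118 were called lower and then higher, and 246 were called lower in both steps. A further 824 were called lower only from 91 to 119 DAP, of which 44 had been called higher in the first step, and 1134 were called lower in neither step. Of the 2395 genes that rose, 602 were called higher in the first step with no call in the second, 27 were called higher and then lower, and 202 were called higher in both. A further 929 were called higher only in the second step, of which 54 had been called lower in the first, and 635 were called higher in neither. The steps share the 91 DAP libraries, so an error in these libraries moves both.

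The second question was which changes from 63 to 91 DAP were undone by 119 DAP. From 63 to 91 DAP 5914 genes changed (26.5% of the tested genes), 1693 higher at 91 DAP (7.59%) and 4221 lower (18.9%). From 91 to 119 DAP 4082 genes changed (18.3%), 2152 higher at 119 DAP (9.65%) and 1930 lower (8.65%). Of the genes changed in the first step, 28.6% were higher, while quantile normalization gave 52.2% and scaling by median ratios 40.8%. A change was called reversed when it passed the threshold in both steps with opposite signs, which held for 1229 genes (5.51% of the tested genes). Of these, 703 were lower and then higher (3.15% of the tested genes) and 526 higher and then lower (2.36%). The 703 are 57.2% of the reversed genes, a share that was 34.4% with quantile normalization. Since both steps use the 91 DAP libraries, a chance deviation there would itself look like a reversal. Without 91 DAP replicate 2, 635 genes were called reversed, and without 91 DAP replicate 1, 813. Of the 1229 genes, 1162 (94.5%) had every 91 DAP library outside the range of both other stages, a pattern that 11.6% of all tested genes showed. The genes were called from these same libraries, so this share adds no separate evidence of a reversal.

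Most changes of the first step were still present at 119 DAP or undecided. Of the 4221 genes lower at 91 DAP, 703 (16.7%) were reversed, 2499 (59.2%) were kept, meaning that they were called between 119 and 63 DAP in the same direction and not between 119 and 91 DAP, and 246 (5.83%) fell further. The remaining 773 were neither. Of the 1693 genes higher at 91 DAP, 526 (31.1%) were reversed, 602 (35.6%) were kept, 202 (11.9%) rose further and 363 were neither. The share reversed was larger among genes that had risen than among genes that had fallen in each of the 20 settings that gave it, and the difference was not tested. It lay between 10.5% and 20.4% for genes that had fallen and between 12.1% and 34.3% for genes that had risen.

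Reversed genes were divided by whether 119 DAP differed from 63 DAP. Of the 703 genes that went down and up, 531 did not differ past the threshold between 119 and 63 DAP, 118 stayed short of the 63 DAP level and 54 went past it. Of the 526 genes that went up and down, 455 did not differ past the threshold, 27 stayed above the 63 DAP level and 44 went below it. Reversals were mostly small: both steps were at least 1 on the log2 scale in 196 of the genes that went down and up and in 62 of those that went up and down.

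**Figure D4:**
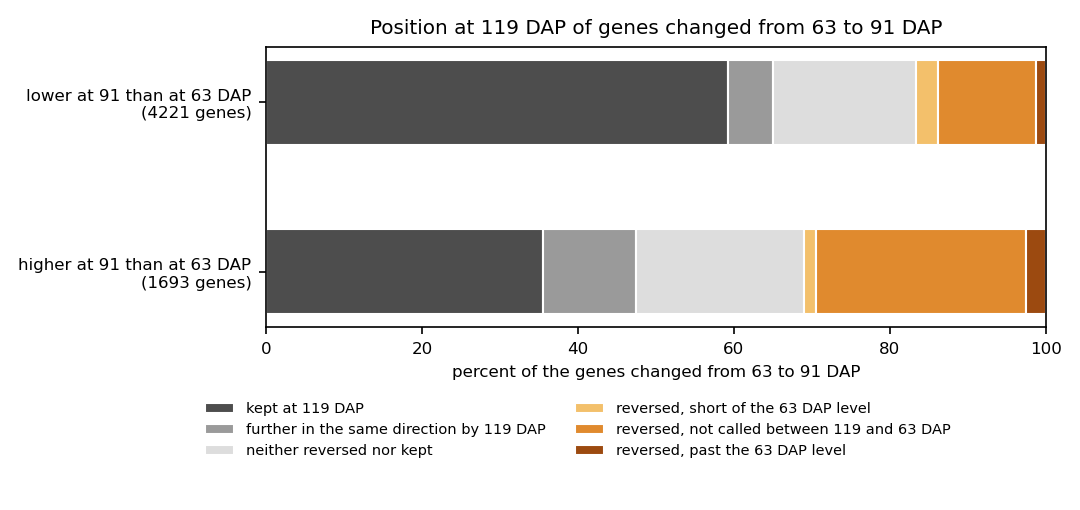
Share of the genes lower (4221) or higher (1693) at 91 than at 63 DAP (x axis, percent) that were kept, moved further, reversed, or did neither by 119 DAP. The orange shades are the reversed genes, 16.7% of the upper bar and 31.1% of the lower bar.

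Of the 91 annotated genes that were reversed, 42 went down and then up. JreChr05G12191, with a late embryogenesis abundant domain and annotated as harpin-induced, had 15.1, 21.0 and 31.8 FPKM at 63 DAP, 5.82, 5.25 and 6.55 FPKM at 91 DAP, then 27.1, 16.6 and 20.9 FPKM at 119 DAP. It fell by 1.73 and then rose by 1.69 on the log2 scale (adjusted p = 0.000209 and 0.000519 from limma), and at 119 DAP it overlapped with 63 DAP. The asparaginase JreChr16G10751, which releases ammonium from asparagine, had 43.6, 30.4 and 42.4 FPKM at 63 DAP, 4.05, 3.43 and 4.56 FPKM at 91 DAP, then 5.51, 16.8 and 12.9 FPKM at 119 DAP. Its steps were -2.98 and 1.23 (adjusted p = 4.74e-06 and 0.00813), and it stayed 1.75 below its 63 DAP level on the log2 scale (adjusted p = 0.000299). The AP2 domain gene JreChr07G12271, of a family of transcription factors, had 1.40, 1.11 and 0.973 FPKM at 63 DAP, was listed at 0 in the 3 libraries of 91 DAP, and had 1.79, 1.21 and 0.550 FPKM at 119 DAP (adjusted p = 0.000463 and 0.00105 for the 2 steps). JreChr03G11916 and JreChr16G10767, of no named function, fell up to 91 DAP and then rose by 1.03 and 1.05 (adjusted p between 0.000477 and 0.0164 over both steps), and JreChr16G10767 was not called reversed without 91 DAP replicate 1 or 119 DAP replicate 1.

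Both enzymes that marked the seed coat were in this group. Chalcone synthase (JreChr02G10304) had 49.4, 52.3 and 129 FPKM at 91 DAP, below every library of 63 and 119 DAP, with steps of -1.41 (adjusted p = 0.0134) and 2.52 (adjusted p = 0.000515), and it was called past its 63 DAP level. The reversal of chalcone synthase was not called without 91 DAP replicate 1 or 2. JrANR (JreChr09G12363) had 103, 110.2 and 109 FPKM at 91 DAP, with steps of -0.82 and 1.36 (adjusted p = 0.0131 and 0.000844), and it was called reversed in 18 of the 18 alternative fits. The embryo marker sum was between 5066 and 10133 FPKM at 91 DAP, against between 1895 and 6759 FPKM at 63 DAP, and its part in the dip of these genes was not tested. The ADP-glucose pyrophosphorylase subunit JreChr04G11920 had 196, 238 and 196 FPKM at 63 DAP, 95.1, 96.0 and 89.0 FPKM at 91 DAP, then 149, 168 and 139 FPKM at 119 DAP, without overlap between any pair of stages. Its steps were -1.15 and 0.70 (adjusted p = 1.14e-05 and 0.00147), and the reversal held in 18 of 18 alternative fits.

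The other 49 annotated reversed genes went up and then down. JreChr03G11951, annotated with a protein tyrosine kinase domain, had 80.7, 71.4 and 78.2 FPKM at 63 DAP, 202, 231 and 233 FPKM at 91 DAP, then 72.7, 49.1 and 53.0 FPKM at 119 DAP, with steps of 1.52 and -1.93 (adjusted p = 1.77e-05 and 7.8e-06). The 91 DAP libraries lay above all those of 63 and 119 DAP. Hsp90 (JreChr05G12210), a chaperone of signalling proteins, had 208, 331 and 337 FPKM at 63 DAP, 515, 624 and 438 FPKM at 91 DAP, then 118, 149 and 129 FPKM at 119 DAP. It rose by 0.87 and fell by 1.97 (adjusted p = 0.00417 and 1.97e-05), ending 1.11 below its 63 DAP level (adjusted p = 0.000513), and held in 18 of 18 alternative fits. The MATE transporter JreChr03G12060 had 0.287, 0.0889 and 0.445 FPKM at 63 DAP, 2.82, 2.67 and 3.80 FPKM at 91 DAP, then 1.05, 1.45 and 1.47 FPKM at 119 DAP, with steps of 1.69 and -0.81 (adjusted p = 4.76e-06 and 0.0032), and so kept part of its rise.

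Genes of the wound-induced protein family, small proteins named for their induction by wounding in other plants, recurred among them. The list holds the 22 annotated members, in a stretch of chromosome 3, and 18 of them were tested. From 63 to 91 DAP 4 rose and 1 fell, from 91 to 119 DAP 8 fell and none rose, and 4 were reversed, all of them higher and then lower (2.36% of all tested genes were). JreChr03G10900 had 84.9, 68.7 and 110.3 FPKM at 63 DAP, 179.7, 144 and 225 FPKM at 91 DAP, then 64.6, 60.2 and 95.1 FPKM at 119 DAP (steps 1.05 and -1.31, adjusted p = 0.0054 and 0.0021). JreChr03G10899 had 21.3, 14.3 and 31.1 FPKM at 63 DAP, 61.1, 37.5 and 62.9 FPKM at 91 DAP, then 20.7, 17.1 and 31.2 FPKM at 119 DAP (steps 1.27 and -1.20, adjusted p = 0.00473 and 0.0104). Both held in 18 of 18 alternative fits. JreChr03G10829 had the same shape with steps of 1.11 and -1.11 (adjusted p = 0.0267 and 0.0366), but it was not called reversed in 10 of 18. These genes share a family annotation, and their reads could have been split among them, but their sequences were not compared. Between 119 and 63 DAP none of the 18 rose and 4 fell (median -0.29), which is 22.2% beside the 21.6% of all tested genes that fell. JreChr03G10821 fell to 3.74, 4.70 and 5.23 FPKM at 119 DAP, against 26.8, 14.9 and 33.2 FPKM at 63 DAP (log2 change -2.16, adjusted p = 0.000245), and JreChr03G10818 fell to a listing of 0 in the 119 DAP libraries, against 4.38, 2.15 and 1.51 FPKM at 63 DAP (adjusted p = 2.02e-05).

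The remaining 2 genes of this kind rested on fewer libraries or settings. JreChr01G12279, a membrane protein with a sulfite exporter domain, had 0.0917, 0.0686 and 0.184 FPKM at 63 DAP, 14.4, 11.1 and 6.38 FPKM at 91 DAP, then 1.46, 4.94 and 6.18 FPKM at 119 DAP. Its step down was -1.24 (adjusted p = 0.0479), and it was called reversed in 4 of 17 alternative fits, while its net rise from 63 DAP was 2.08 (adjusted p = 0.00127). JreChr04G12063, of the pollen Ole e I and extensin family of wall proteins, had 1.31, 0.364 and 0.820 FPKM at 63 DAP, 1.69, 3.61 and 3.24 FPKM at 91 DAP, then 1.14, 0.490 and 1.08 FPKM at 119 DAP (adjusted p = 0.00719 and 0.0157), and held in 14 of 17.

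**Figure D5:**
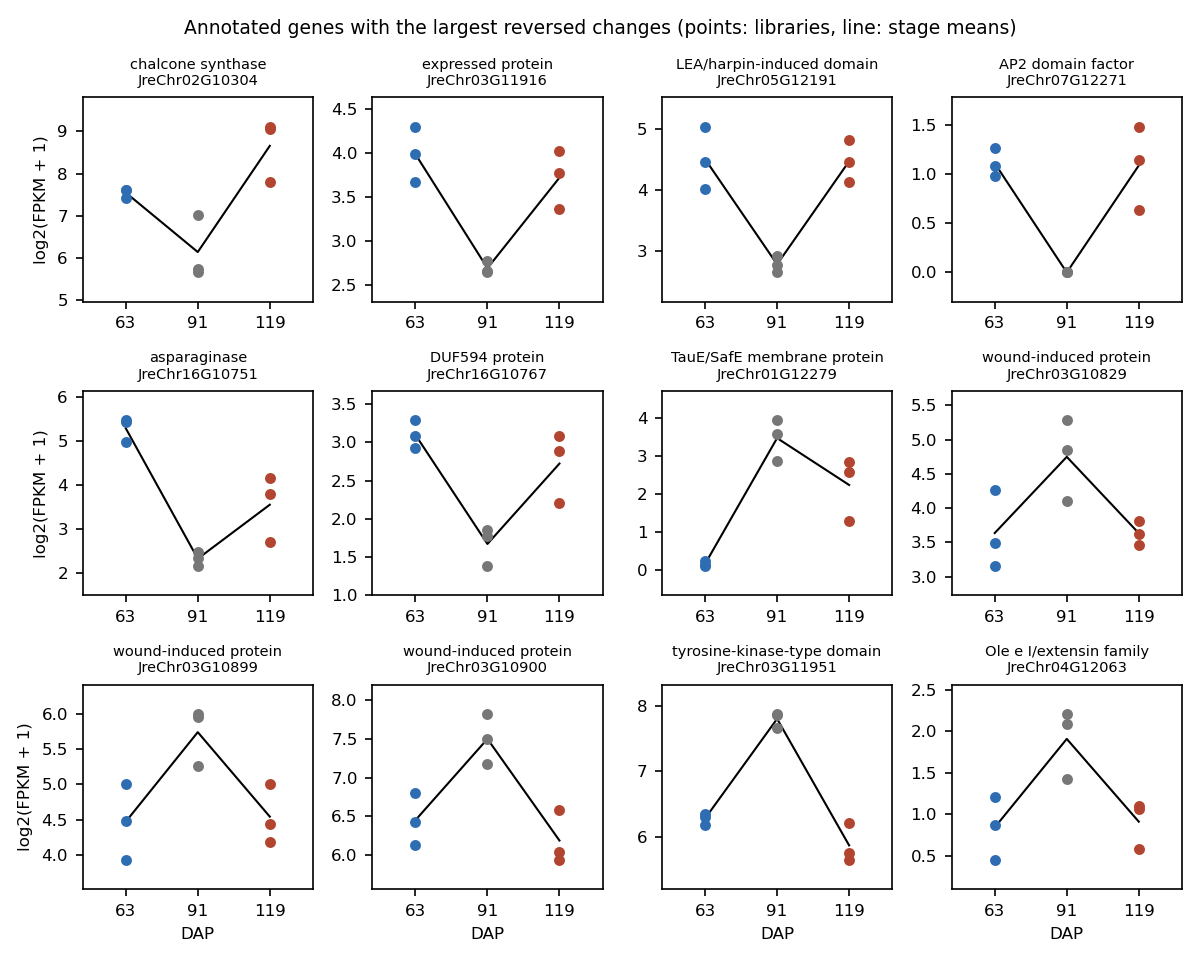
log2(FPKM + 1) of each library (points) and the stage means (line) at 63, 91 and 119 DAP for the 6 annotated genes with the largest dip and the 6 with the largest peak at 91 DAP, each panel on its own y scale. In 9 of the 12 genes 119 DAP was not called different from 63 DAP, while asparaginase stayed lower and chalcone synthase and the TauE/SafE gene were higher.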

How the data were processed

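RNA of walnut endopleura was sequenced in 15 libraries, 3 at each of 5 stages, each from 7 pooled nuts. The authors used HISAT2 2.1.0 for alignment to a walnut genome of their own and deposited FPKM values from StringTie 1.3.5, 1 column per library, and coordinates are those of their genome. Genes that reached 1 FPKM in 3 or more of the 15 libraries were analysed as log2(FPKM + 1) with limma 3.58.1 (R 4.3.3), with 1 coefficient per stage over all 15 libraries, an intensity trend in the variance and Benjamini-Hochberg adjustment over 22310 genes. Count models were not applied to FPKM.

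The comparisons were 119 with 63 DAP, 91 with 63 DAP and 119 with 91 DAP, each called at an adjusted p under 0.05. In data simulated for 119 against 63 DAP over 22310 genes, 163 of 200 changed genes and 5 unchanged genes were called, and 99 of 100 simulated reversals were found. The simulated reversals were made larger than most real ones. Both steps were at least 2 on the log2 scale in 9 real genes that went down and up and in 4 that went up and down. The share found therefore does not apply to smaller reversals, which were not simulated. Named genes are those the study's text gives by identifier, the 8 largest annotated rises and falls without overlap, the 2 largest of each direction over all genes, up to 2 called members of each list in each direction, and the 6 largest annotated reversals of each kind. Other list members, and the genes given as examples beyond this rule, were chosen after their values were seen. Annotations came from the study's supplementary tables and cover 1748 of the tested genes. The RefSeq table matched 0 identifiers, so no sequence is shown. The members and lists were chosen with earlier results of these data known. The alternatives were another pseudocount, scaling, filter, variance model and fit, a fold minimum, the replicate number as a block, and each library left out.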

Additional observations from a re-analysis of the deposited data

How the results depend on the processing

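The count of genes changed between 119 and 63 DAP, 7216, became 3086 with a log2 change of at least 1, and leaving out single libraries gave 5875 to 7509. The count of reversed genes, 1229, became 785 when the fit held no other stages, 258 with a log2 change of at least 1 in both steps, and 2584 when every 91 DAP library had only to lie outside those of 63 and 119 DAP. With 1 library left out it ran from 635 to 1267. Without 91 DAP replicate 2 it was 635, of which 612 were among the 1229, and without 91 DAP replicate 1 it was 813. The cause was not tested.

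The deviations of same-numbered libraries from their stage means correlated above 0.1 in 4 of 9 pairs (r from -0.34 to 0.41). These correlations rest on 3 libraries per stage and cannot decide whether same-numbered libraries are paired. With the replicate number as a block, 6817 genes changed and 1050 were reversed, and the named genes JreChr04G11946 and JreChr13G10807 did not pass (limma, adjusted p = 0.0639 and 0.061).

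For the named genes, 1358 of 1437 values under the alternatives kept their direction and their side of the threshold, 52 no longer passed, 8 newly passed and 19 changed sign. The sign changes were all between 119 and 63 DAP in 5 genes that were not called there. JreChr03G10829 was 0.0027 on the log2(FPKM + 0.1) scale, 0.11 after quantile normalization and 0.10 after scaling by median ratios. JreChr05G12191 was 0.040 and 0.075 in the last 2 settings, and JreChr07G12271 was 0.20 and 0.038. With 1 library left out, the log2 change ran for JreChr03G10829 from -0.24 to 0.31, for JreChr03G10899 from -0.20 to 0.34, for JreChr04G12063 from -0.13 to 0.25, for JreChr05G12191 from -0.28 to 0.23 and for JreChr07G12271 from -0.22 to 0.21.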

Other observations

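Among the 2395 genes higher at 119 DAP, replicate 2 was the lowest 119 DAP library in 1134 (47.3%) and the highest in 804 (33.6%). Among the 4821 genes lower at 119 DAP, it was the lowest in 2206 (45.8%). In the scaling by median ratios the factor of replicate 2 was 0.904, against 1.048 and 1.001 for replicates 1 and 3. The part of this in these counts was not tested. Without replicate 2 of 119 DAP, 6505 genes changed between 119 and 63 DAP (limma), 2469 higher and 4036 lower at 119 DAP.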
